A study of Mus musculus with 6 samples.

Results

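Chemokine receptors were compared between 2 subsets of cells sorted from injured mouse muscle. The receptors were Ccr1, Ccr2, Ccr3, Ccr7, Cx3cr1, Cxcr2, Cxcr3, Cxcr4 and Ccrl2, 9 of the 19938 genes measured. Each was read from the probe set (the group of array probes that reports 1 gene) whose only annotated symbol was that of the receptor, and each of the 9 had exactly 1 such probe set. All mice were of the strain B6.129P2-Lyzstm1(cre)Ifo/J, which carries Cre recombinase at the lysozyme locus, a locus active in myeloid cells, and no allele for Cre to act on is named in the labels. The tibialis anterior muscle was injured with cardiotoxin, a snake venom toxin that kills muscle fibres and is followed by regeneration. At 2 days, blood-lineage cells were taken with CD45 beads and sorted with antibodies by the surface proteins Ly6C and F4/80. Each of 3 mice gave 1 sample of Ly6C+ F4/80low cells and 1 of Ly6C- F4/80high cells, on 6 Affymetrix arrays in all, and no uninjured muscle was among the samples. Neither age nor sex of the mice is stated in the labels.

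Chemokine receptors are G-protein-coupled receptors that pass through the cell membrane several times and steer leukocytes along gradients of small secreted proteins, the chemokines. In injured muscle, monocytes that carry Ly6C and Ccr2 enter from blood and are followed by macrophages with little Ly6C. Signals run through inhibitory G proteins to kinases and Rac GTPases that move the cell, while receptor kinases, arrestins and RGS proteins end the signal. Ccrl2 is an atypical member that binds the chemoattractant chemerin without signalling through G proteins.

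Values are log2 levels, so that a difference of 1 is a 2-fold change, and every difference is Ly6C- F4/80high minus Ly6C+ F4/80low. Adjusted p-values are from limma with Benjamini-Hochberg adjustment over all genes, and a gene was called where that value was under 0.05. Across probe sets the correlation was 0.990 to 0.993 between arrays within a subset and 0.979 to 0.982 between arrays of different subsets. The Ly6c1 and Ly6c2 genes, which share probe sets, were 10.5-fold and 9.08-fold lower in the Ly6C- F4/80high cells on those probe sets, and Adgre1, which encodes F4/80, was 1.66-fold higher. Ptprc, which encodes the CD45 by which all the cells were taken, was 1.56-fold lower in the Ly6C- F4/80high cells (adjusted p = 0.000127). All 9 macrophage and monocyte markers were above background on all 6 arrays. Background was set at 5.44, the 95th percentile of 1194 olfactory and vomeronasal receptor genes. Of all genes 33.8% were called, 19.5% higher and 14.3% lower. Higher genes made up 57.6% of the calls, and 73.4% when the arrays were shifted to a common median. In bulk samples such as these, fewer cells of a type and less RNA per cell cannot be told apart.

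Of the 9 receptors 5 were called lower in the Ly6C- F4/80high cells (Ccr2, Ccr1, Cxcr2, Ccr7 and Cxcr4), 1 was called higher (Cxcr3) and 3 were not called (Cx3cr1, Ccr3 and Ccrl2). The 6 calls are 66.7% of the receptors, beside 33.8% of all genes and 45.7% of genes above background on all 6 arrays. Of the 7 receptors above background on all arrays 5 were called. At least 2-fold lower were 2, Ccr1 and Ccr2, beside 1.02% of all genes, and 0 were at least 2-fold higher, beside 1.91%. The median difference over the receptors was -0.38, and it was -0.06 over all genes. For 7 receptors the 2 sets of arrays were fully apart, as for 48.1% of all genes, and 8 had the same sign in all 3 mice, Ccr3 among them, as did 60.8% of all genes. The calls of Ccr1, Ccr2 and Cxcr2 held in every alternative setting that tested them, while those of Ccr7, Cxcr3 and Cxcr4 were each lost in at least 1. Leaving out both arrays of mouse 2 left 3 receptors called.

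**Figure D1:**
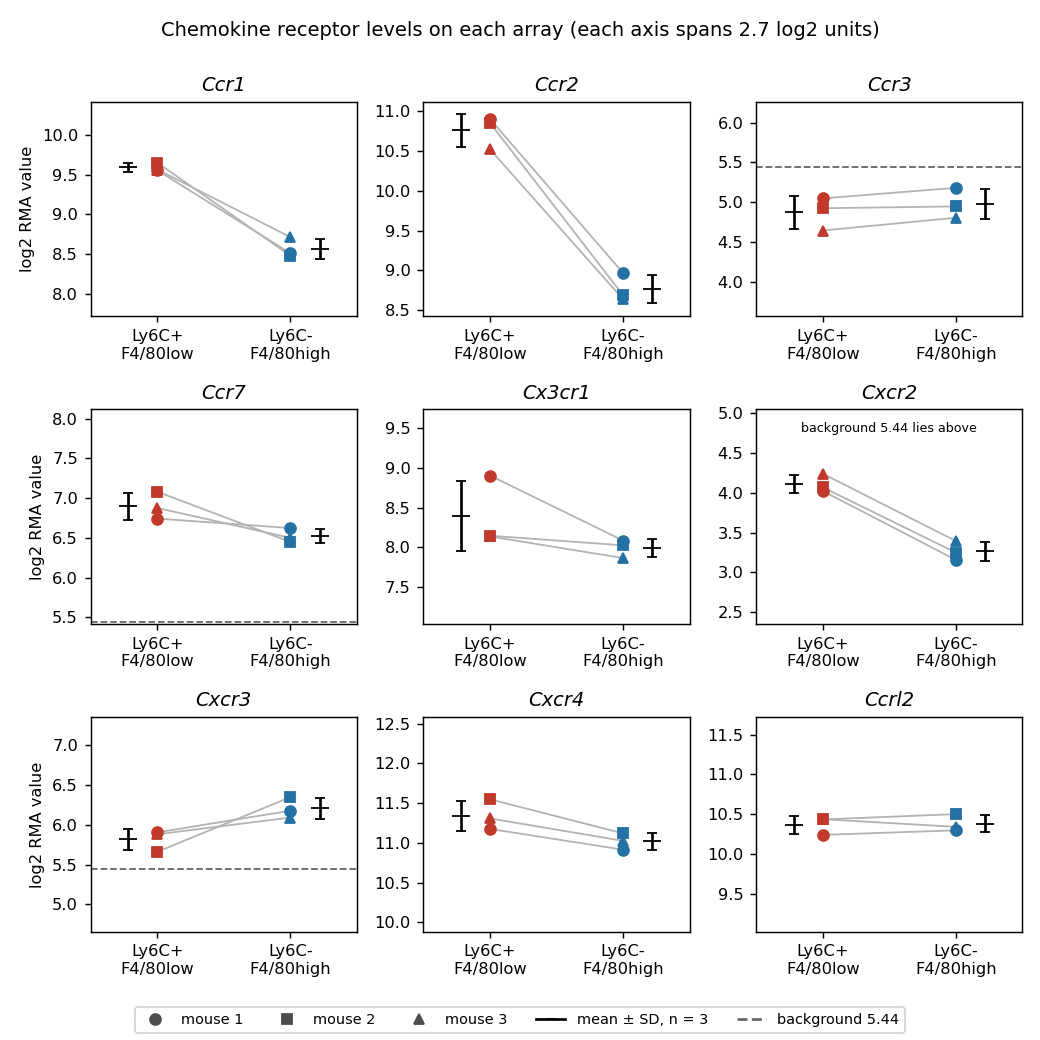
Level of each of the 9 receptors on each array (y axis, log2 RMA value, each panel spanning the same number of log2 units) in the Ly6C+ F4/80low (red) and Ly6C- F4/80high (blue) cells, with lines joining the arrays of a mouse, mean ± SD beside the points (n = 3) and background dashed. The differences of Ccr2 and Ccr1 within a mouse ran from -2.17 to -0.85, Ccrl2 stayed between 10.24 and 10.50 on all arrays, and Ccr3 and Cxcr2 lay under the background of 5.44.

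Promoter sequence is shown for 3 receptors with levels above background in both subsets: Ccr1, with a large fall, Cxcr4, with a small one, and Cxcr3, the receptor called higher. Each run is the 250 bases before the annotated start, written 5′ to 3′ on the strand of the gene, from RefSeq on GRCm38.p6. The stretches are chr9:123968693-123968942 for Ccr1, chr1:128592300-128592549 for Cxcr4 and chrX:101734148-101734397 for Cxcr3, all on the minus strand and all just upstream of the gene. Capitals mark matches to the motifs named in the next paragraph.
Ccr1: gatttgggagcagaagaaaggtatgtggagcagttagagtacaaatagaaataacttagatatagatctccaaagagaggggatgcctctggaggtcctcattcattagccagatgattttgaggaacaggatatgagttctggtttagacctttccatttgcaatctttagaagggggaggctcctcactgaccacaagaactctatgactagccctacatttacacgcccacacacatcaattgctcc
Cxcr4: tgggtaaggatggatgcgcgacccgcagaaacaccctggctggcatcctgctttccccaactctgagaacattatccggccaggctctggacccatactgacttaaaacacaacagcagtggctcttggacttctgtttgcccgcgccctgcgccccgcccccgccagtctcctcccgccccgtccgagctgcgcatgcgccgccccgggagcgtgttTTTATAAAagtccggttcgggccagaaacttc
Cxcr3: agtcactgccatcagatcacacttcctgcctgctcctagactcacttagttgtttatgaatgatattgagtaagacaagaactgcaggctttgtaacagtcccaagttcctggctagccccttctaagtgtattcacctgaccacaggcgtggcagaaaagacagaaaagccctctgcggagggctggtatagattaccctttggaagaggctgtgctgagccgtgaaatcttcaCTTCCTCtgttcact

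The table of promoters held 8 of the 9 receptors, with 10 start sites. Both strands were searched for PU.1 (GAGGAAG), C/EBP (TTGCNNAA), AP-1 (TGANTCA), a hypoxia element (ACGTG) and a TATA box (TATAAA). The Ccr1 run held none of these letters. The Cxcr4 run held a TATA box match on each strand, overlapping one another at 32 and 30 bases before the start, and 12.4% of all 32851 promoters held one. The Cxcr3 run held a PU.1 match on the opposite strand at 15 bases before the start, as 10.6% of all promoters did. Of the runs not printed, Ccr3 held an AP-1 match (6.75% of promoters) and all 3 Ccrl2 starts held the hypoxia element (16.6%). No receptor run held the C/EBP letters (9.56%). A match is a run of letters and not a measured binding site.

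Ccr2 is the receptor for Ccl2 and Ccl7 that draws Ly6C-positive monocytes out of marrow and into tissue. Its level was 10.90, 10.85 and 10.52 in the Ly6C+ F4/80low cells of mice 1, 2 and 3 and 8.96, 8.69 and 8.63 in their Ly6C- F4/80high cells. All Ly6C+ F4/80low arrays lay above all others, with a gap of 1.56 between the subsets that was larger than the range within either. The difference was -2.00 (SE 0.12, adjusted p = 2.41e-06), which put the Ly6C- F4/80high level at 25% of the other (95% interval 20.7% to 30.2%). Of the 19938 genes 29 differed by more in this direction. Across alternatives the difference ran from -2.12 to -1.91.

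Ccr1 binds Ccl3, Ccl5, Ccl6, Ccl7 and Ccl9 and is found on monocytes, macrophages and neutrophils. Its level was 9.56, 9.65 and 9.57 in the Ly6C+ F4/80low cells of mice 1, 2 and 3 and 8.51, 8.48 and 8.72 in the Ly6C- F4/80high cells. The 3 Ly6C+ F4/80low arrays lay within 0.0967 of each other and did not overlap the other subset. The difference was -1.02 (SE 0.09, adjusted p = 1.67e-05), or 49.3% of the Ly6C+ F4/80low level (95% interval 43.1% to 56.2%), and 197 genes differed by more in this direction. It ran from -1.14 to -0.95 across alternatives. The fall in Ccr1 was smaller than that in Ccr2 in each mouse, at -1.04 against -1.94, -1.17 against -2.17 and -0.85 against -1.89, a contrast for which no test was made.

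Cx3cr1, the receptor for fractalkine, marks patrolling monocytes and many tissue macrophages. Its levels were 8.90, 8.15 and 8.14 in the Ly6C+ F4/80low cells of mice 1, 2 and 3 and 8.09, 8.03 and 7.87 in the Ly6C- F4/80high cells. The Ly6C+ F4/80low array of mouse 1 lay far above the other 5, which were within a narrow band, and the subsets were parted by a gap of only 0.0522. The difference was not called (95% interval of the difference -0.81 to -0.00087, adjusted p = 0.111). Within mice 1, 2 and 3 it was -0.82, -0.12 and -0.27. Without that 1 array it was -0.15 (adjusted p = 0.265), and without mouse 1 it was -0.20 (adjusted p = 0.213). Cx3cr1 was called lower after quantile normalization of the tested genes alone (adjusted p = 0.0371) and after cyclic loess over them (0.0452). It was not called after the same 2 steps over all probe sets (0.0738 and 0.0739).

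Cxcr4 holds leukocytes in marrow and tissue through its ligand Cxcl12. Its level was 11.17, 11.55 and 11.31 in the Ly6C+ F4/80low cells of mice 1, 2 and 3 and 10.91, 11.12 and 11.02 in the Ly6C- F4/80high cells. The lowest Ly6C+ F4/80low array lay 0.0558 above the highest of the other subset, although each mouse showed the same direction, by -0.26, -0.43 and -0.28. Cxcr4 was called lower by a small margin, with a difference of -0.32 (SE 0.11, adjusted p = 0.0378), or 79.9% of the Ly6C+ F4/80low level (95% interval 67.9% to 94%). The call was lost in 10 of 24 alternatives. It was lost with the arrays at a common median (-0.25, adjusted p = 0.0899) or a common median of the tested genes (0.0506), and with all probe sets tested separately (0.0961). With single arrays left out, the adjusted p was 0.127 and 0.0897 without mouse 1 or 3 of the Ly6C- F4/80high cells and 0.117 and 0.0702 without mouse 2 or 3 of the Ly6C+ F4/80low cells. Without mouse 1, 2 or 3 it was 0.061, 0.0784 or 0.145. The difference kept its sign throughout, between -0.41 and -0.22.

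Ccr7 guides dendritic cells and naive lymphocytes to lymph nodes along Ccl19 and Ccl21. Its level was 6.74, 7.08 and 6.88 in the Ly6C+ F4/80low cells of mice 1, 2 and 3 and 6.62, 6.45 and 6.50 in the Ly6C- F4/80high cells. The subsets did not overlap, but the difference within a mouse ran from -0.12 in mouse 1 to -0.63 in mouse 2. Ccr7 was called lower by -0.38 (SE 0.10, adjusted p = 0.0153), at 77.1% of the Ly6C+ F4/80low level (95% interval 66.1% to 89.8%). The call was lost without mouse 2 (-0.25, adjusted p = 0.104), without mouse 3 (0.0991), and on leaving out only the Ly6C+ F4/80low sample of mouse 2 (0.0508) or the Ly6C- F4/80high sample of mouse 3 (0.0517), and with all probe sets tested separately (0.0521). Of 11 dendritic cell markers 6 were called lower, beside 14.3% of all genes. Under background on all arrays were 4 of the 11 (Clec9a, Xcr1, Dpp4 and Itgae), 1 of them called. The summed linear level of the 11 markers ran from 442.6 to 453.6 in the Ly6C- F4/80high cells and from 611.2 to 661.9 in the Ly6C+ F4/80low cells. The part of these markers in the Ccr7 difference was not tested.

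Cxcr3, the receptor for the interferon-induced chemokines Cxcl9, Cxcl10 and Cxcl11, is best known from activated T cells and NK cells. Its level was 5.91, 5.66 and 5.88 in the Ly6C+ F4/80low cells of mice 1, 2 and 3 and 6.18, 6.35 and 6.09 in the Ly6C- F4/80high cells. Every Ly6C- F4/80high array lay above every other, all within about 1 log2 unit of background. Cxcr3 was called higher by 0.39 (SE 0.10, adjusted p = 0.0119), at 131% of the Ly6C+ F4/80low level (95% interval 113% to 152%). Mouse 2 gave the largest difference, 0.69, beside 0.27 and 0.21 in mice 1 and 3, and without mouse 2 the call was lost (0.24, adjusted p = 0.0884). Of 10 T cell markers Il7r and Cd28 were called higher and Cd3e lower, beside 19.5% and 14.3% of all genes. Cd3d and Cd3g were under background on all arrays. The summed linear level of the 10 T cell markers ran from 2372 to 2805 in the Ly6C- F4/80high cells and from 1761 to 2234 in the others. Such a sum weighs most the markers with the highest levels. The median difference of the 10 markers was -0.16, beside -0.06 over all genes, and 7 of them were not called. Of 8 NK cell markers 6 were under background on all arrays, with sums of 170.1 to 185.3 and 193.9 to 203. The part of these cells in the Cxcr3 difference was not tested.

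Cxcr2 responds to Cxcl1, Cxcl2 and Cxcl5 and leads neutrophils into inflamed tissue. Its values were 4.02, 4.07 and 4.24 in the Ly6C+ F4/80low cells of mice 1, 2 and 3 and 3.16, 3.25 and 3.39 in the Ly6C- F4/80high cells. All 6 lie under background, so no fold is given, and the values bear only on what the probe set reads near background. The probe set was called lower (adjusted p = 8.65e-05), in a class in which such calls lean one way: of 6684 genes under background on all arrays 11% were called lower and 2.56% higher. The median difference in that class was -0.114 (SD over genes 0.177), and 4 of its genes had a more negative difference than Cxcr2. Of the 1194 olfactory and vomeronasal receptor genes 0 did. Of 12 neutrophil markers 7 were under background on all arrays, among them Ly6g, Mpo and Elane. Called lower were 2 and higher 0, beside 14.3% and 19.5% of all genes. The called markers were Ly6g (adjusted p = 0.00279) and S100a9 (adjusted p = 0.000681), which fell at least 1.27-fold, to under background in the Ly6C- F4/80high cells. The part of neutrophil RNA in the Cxcr2 call was not tested. The markers' summed linear level overlapped between the subsets, at 1070 to 1115 in the Ly6C- F4/80high cells and 1094 to 1151 in the Ly6C+ F4/80low cells.

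Ccr3, the eotaxin receptor of eosinophils, was under background on all arrays, so that no fold is given. Its values were 5.05, 4.92 and 4.64 in the Ly6C+ F4/80low cells of mice 1, 2 and 3 and 5.18, 4.95 and 4.80 in the Ly6C- F4/80high cells. The subsets overlapped and Ccr3 was not called (adjusted p = 0.531). Of 7 eosinophil markers 4 were likewise under background on all arrays (Prg2, Epx, Il5ra and Ear6), and the summed linear level was 289.4 to 347.4 in the Ly6C- F4/80high cells and 354.1 to 389.9 in the Ly6C+ F4/80low cells.

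Ccrl2 was 10.24, 10.43 and 10.44 in the Ly6C+ F4/80low cells of mice 1, 2 and 3 and 10.30, 10.50 and 10.34 in the Ly6C- F4/80high cells. The ranges overlapped over most of their length. The difference was 0.01 (SE 0.09, 95% interval -0.19 to 0.21, adjusted p = 0.944), and across alternatives it ran from -0.06 to 0.09. As a share of the Ly6C+ F4/80low level, the interval ran from 87.6% to 116%. Cmklr1, the signalling receptor for the same ligand chemerin, was 9.79, 9.69 and 9.71 in the Ly6C+ F4/80low cells and 9.76, 9.85 and 9.79 in the Ly6C- F4/80high cells, a difference of 0.07 that was not called (adjusted p = 0.466).

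**Figure D2:**
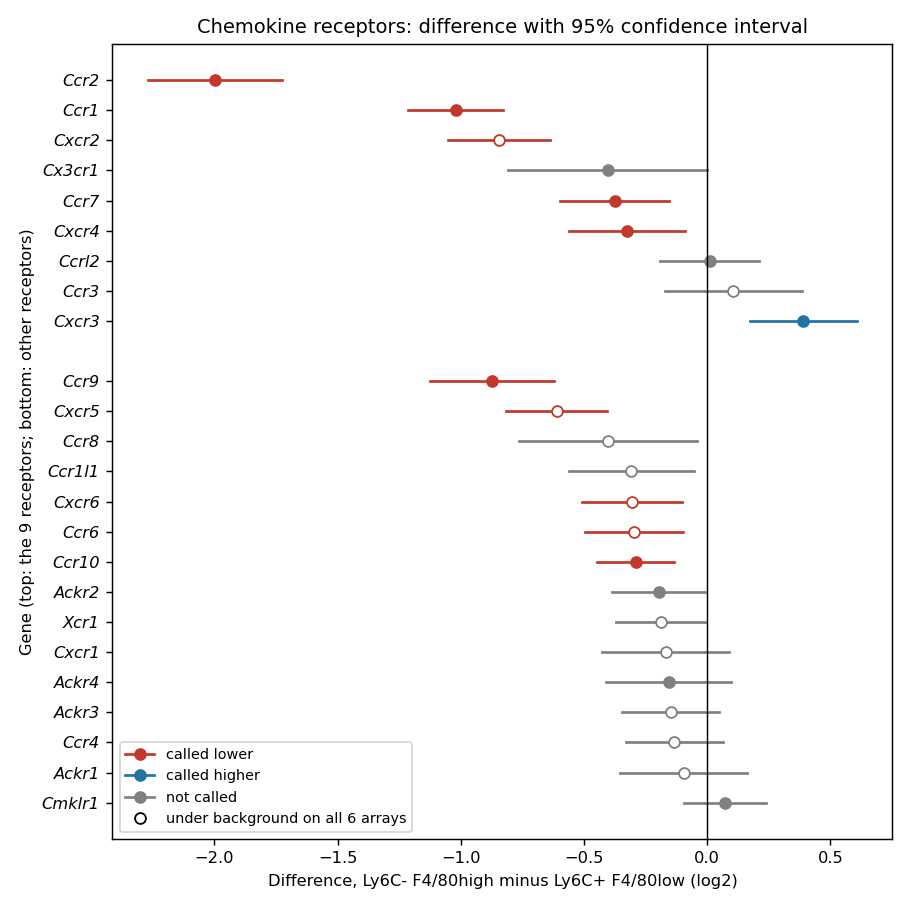
Difference of each chemokine receptor gene (x axis, Ly6C- F4/80high minus Ly6C+ F4/80low, log2) with its 95% confidence interval, for the 9 receptors (upper group) and 15 other chemokine receptors (lower group), coloured by call and open where all 6 arrays lay under background. Ccr2 at -2.00 and Ccr1 at -1.02 lie farthest from 0, Cxcr3 at 0.39 is the one call to the right, and 10 of the 15 other receptors are open symbols.

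For each receptor above background, the genes with the most similar pattern over the 6 arrays were sought among 11522 genes, by the root mean square distance of values centred on each gene's mean. With so few arrays this measure follows the size of the subset difference closely. Nearest to Ccr2 were Ifi205 (0.0927), Sparc (0.109) and Hp (0.138), a DNA sensor of the interferon family, a matrix protein and haptoglobin. Nearest to Ccr1 were Dnajb4 (0.0607), Cd69 (0.0645) and Niban1 (0.0669), of which Cd69 is a surface antigen of activated leukocytes. Cxcr4 had Vav3 (0.0276), Ing3 (0.0329) and Gper1 (0.0391), and Cxcr3 had Rragd (0.023), Rcan3 (0.0356) and Emilin1 (0.0371). Ccr7 had Ak8 (0.0396), Inpp5a (0.0473) and Ccdc71l (0.0526), and Ccrl2 had Stpg1 (0.0296), Zfhx2 (0.0313) and Ficd (0.0315). The nearest genes to Cx3cr1 were Pram1 (0.0951), She (0.0979) and Tmem51os1 (0.118), at distances close to those for Ccr2.

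Several receptor genes lie side by side, and their neighbours in RefSeq order were not called with them. Ccr1 stands between Xcr1 (-0.19, adjusted p = 0.0994) and Ccr1l1 (-0.31, 0.0607), and Ccr3 between Ccr1l1 and Ccr2. Of this run Ccr1 and Ccr2 were called and Xcr1, Ccr1l1 and Ccr3 were not, all 3 of the latter being under background. With the mouse as a block Ccr1l1 was called lower as well (adjusted p = 0.0214). Cxcr1, which lies next to Cxcr2 and also binds neutrophil chemokines, was under background too and not called (-0.17, adjusted p = 0.277). Leaving out the Ly6C- F4/80high sample of mouse 2 gave Cxcr1 a call (-0.30, adjusted p = 0.0352), as did leaving out mouse 2 (-0.34, 0.0366).

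Of 15 other chemokine and atypical chemokine receptors measured by their own probe sets, 0 were called higher and 5 lower, beside 19.5% and 14.3% of all genes. Their median difference was -0.20, and it was between -0.18 and -0.12 under the other scalings. Under background on all arrays were 10, including the called genes Ccr6, Cxcr5 and Cxcr6. Cxcr5, a receptor of B cells, kept its call in all 21 alternatives that tested it, while Ccr6 and Cxcr6 each lost theirs in 12 of 21, among them quantile normalization, a common median and cyclic loess. Ccr6 lost it without mouse 1 or 3 (adjusted p = 0.119 and 0.223), without either Ly6C- F4/80high sample of these mice (0.0858 and 0.101), and without Ly6C+ F4/80low mouse 2 or 3 (0.0559 and 0.083). Cxcr6 lost it without mouse 1 or 2 (adjusted p = 0.178 and 0.098), without either Ly6C+ F4/80low sample of these mice (0.0856 and 0.086), and without Ly6C- F4/80high mouse 1 or 3 (0.0786 and 0.0775). Ccr9, the receptor of gut-homing lymphocytes, was 5.96, 5.83 and 5.56 in the Ly6C+ F4/80low cells and under background in all Ly6C- F4/80high cells, which makes it at least 1.27-fold lower there (adjusted p = 0.000261). Ccr10, a receptor of skin-homing lymphocytes, was 6.12 ± 0.02 and 5.83 ± 0.03 (SD, n = 3), with a difference of -0.29 (adjusted p = 0.0102) that lost its call without mouse 1 (adjusted p = 0.0743) or mouse 3 (0.0727). With the mouse as a block Ccr8, under background, was called lower (adjusted p = 0.00795). Leaving out mouse 1 left 2 of the 15 called, and leaving out mouse 3 or its Ly6C- F4/80high sample left 3.

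Chemokine genes listed as ligands of the 9 receptors were measured in the same cells, 23 of them with probe sets of their own. Ccl4 and Ccl8 are in this list but were paired with no single receptor. Called higher were 2, Ccl8 and Cxcl1, and 7 were called lower: Ccl2, Ccl5, Ccl6, Ccl9, Ccl24, Cxcl10 and Cxcl12. The 9 calls are 39.1% of the ligands, beside 33.8% of all genes and 45.7% of genes above background on all 6 arrays. Above background on at least 1 array were 20 of the 23 ligands. The other 14 were not called, and the median difference was -0.16. All but Cxcl1 held their calls in every alternative that tested them. Under the other scalings 1 to 3 ligands were higher and 7 lower.

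Of the ligands paired with Ccr2 and Ccr1, 4 were called, all of them lower. Ccl2, the main monocyte chemoattractant, was 11.89, 11.84 and 11.88 in the Ly6C+ F4/80low cells and 11.52, 11.42 and 11.59 in the Ly6C- F4/80high cells, which differed by -0.36 (SE 0.08, adjusted p = 0.00504). Ccl7 and Ccl12, also Ccr2 ligands, were not called, at -0.07 and -0.03. Of the Ccr1 ligands Ccl5 differed by -0.72 (adjusted p = 0.00646), Ccl6 by -0.56 (0.00061) and Ccl9 by -0.69 (0.000138), while Ccl3 differed by -0.02 and was not called (0.827). The unpaired chemokine Ccl8 went the other way, from 6.36, 6.50 and 6.22 in the Ly6C+ F4/80low cells to 9.47, 9.28 and 9.55 in the Ly6C- F4/80high cells, or 8.44-fold higher (adjusted p = 5.77e-08).

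Cxcl10, an interferon-induced Cxcr3 ligand, was 11.16, 10.66 and 11.11 in the Ly6C+ F4/80low cells and 10.04, 9.77 and 9.73 in the Ly6C- F4/80high cells, a fall (-1.13, SE 0.14, adjusted p = 0.000168) in the subset in which Cxcr3 was called higher. Cxcl9 and Cxcl11, the other Cxcr3 ligands, were not called at -0.22 and -0.18, the latter under background, and Cxcl11 was called lower without mouse 2 (-0.40, adjusted p = 0.0237) or without its Ly6C- F4/80high array (-0.32, 0.0449). Cxcl12, the ligand of Cxcr4, was 5.86, 5.84 and 5.69 in the Ly6C+ F4/80low cells and under background in all Ly6C- F4/80high cells, at least 1.28-fold lower there (adjusted p = 0.000558). Stromal cells are the usual source of Cxcl12. Called lower were 5 of 6 fibroblast markers and 6 of 7 endothelial markers, beside 14.3% of all genes. In each list 1 called marker was under background on all arrays. The summed linear level of the fibroblast markers was 249.2 to 273.2 in the Ly6C- F4/80high cells and 325.5 to 438.5 in the Ly6C+ F4/80low cells. That of the endothelial markers was 364.1 to 383.6 and 587.2 to 641.5 in the same order, and their part in the Cxcl12 difference was not tested. Ccl24, an eotaxin that binds Ccr3, fell from 7.42 ± 0.20 to 6.09 ± 0.15 (SD, n = 3; -1.33, adjusted p = 1.78e-05), while Ccr3 itself was under background in both subsets.

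Among the ligands not called were Ccl11, Ccl19, Cx3cl1 and Rarres2. Ccl11, the other eotaxin, differed by 0.22 (adjusted p = 0.131), and was called higher only at a common median (0.30, adjusted p = 0.0491). Ccl19, a ligand of Ccr7, differed by -0.16 (adjusted p = 0.177). Cx3cl1, which encodes fractalkine, differed by -0.23 (adjusted p = 0.0937) and was called lower without mouse 2 (-0.32, adjusted p = 0.041) or without its Ly6C- F4/80high sample (-0.33, 0.0166). Rarres2, which encodes chemerin, was under background on all arrays and not called (adjusted p = 0.106), but it was without the Ly6C+ F4/80low sample of mouse 2 (0.0403).

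Of the 5 measured Cxcr2 ligands, Cxcl1 alone was called. Its level was 9.52, 9.07 and 9.18 in the Ly6C+ F4/80low cells and 10.19, 9.77 and 9.44 in the Ly6C- F4/80high cells, where the lowest array of the second group lay under the highest of the first. It was called higher by 0.54 (SE 0.18, adjusted p = 0.0383), and the call was lost in 10 of 24 alternatives, among them quantile normalization (adjusted p = 0.0634) and cyclic loess (0.0783). Among single samples, it was also lost without Ly6C- F4/80high mouse 1 (0.35, adjusted p = 0.123) or mouse 2 (0.0663) and without Ly6C+ F4/80low mouse 2 (0.113) or mouse 3 (0.102), and it was lost without mouse 2 as a whole (0.156). Cxcl2, Cxcl3, Cxcl5 and Ppbp differed by -0.05, 0.12, -0.07 and -0.08 and were not called.

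**Figure D3:**
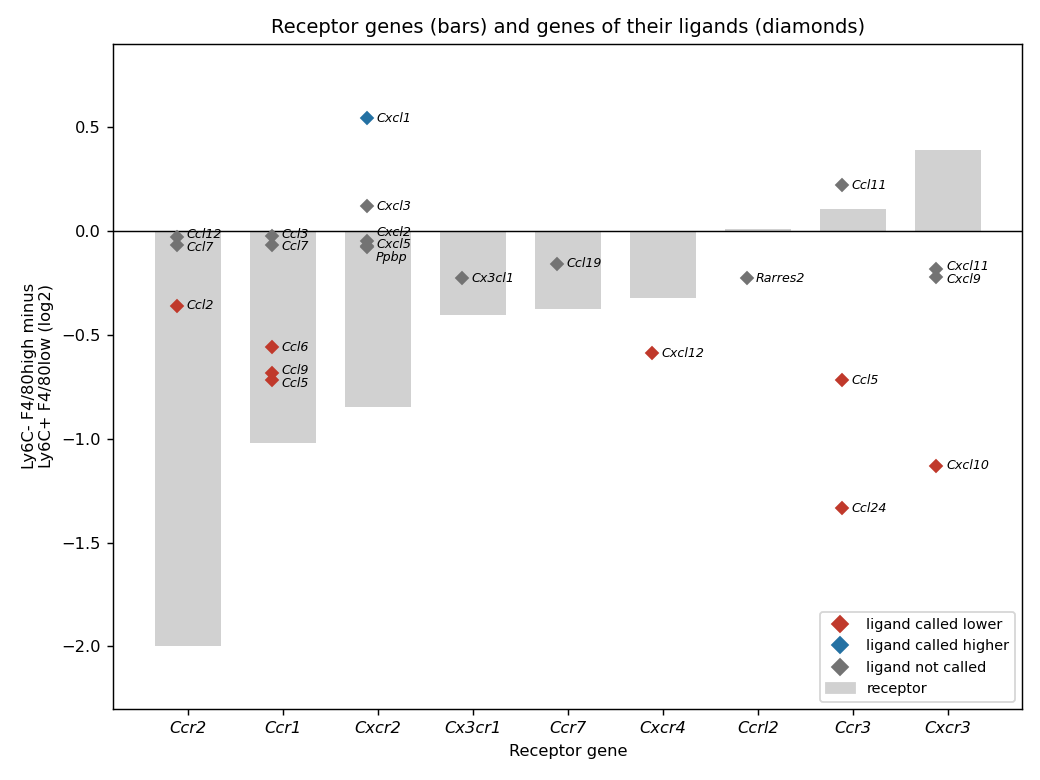
Difference of each receptor gene (bars, y axis in log2, Ly6C- F4/80high minus Ly6C+ F4/80low, from 0) and of the genes of its ligands (diamonds, coloured by call; names stacked from high to low where diamonds lie close). Ccl4 and Ccl8, paired with no receptor, are not drawn. Ccr3, Cxcr2, Cxcl5, Cxcl11 and Rarres2 lay under background on all arrays and Cxcl12 in the Ly6C- F4/80high cells; the Ccr2 bar reaches -2.00 while the ligands paired with it lie between -0.36 and -0.03, and Cxcr3 at 0.39 stands opposite Cxcl10 at -1.13.

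Genes that carry the receptors' signal were called in both directions. Of 36 measured genes of G proteins, receptor kinases, arrestins, RGS proteins, phosphoinositide 3-kinases and Rac regulators, 4 were called higher, 7 lower and 25 not, with a median of -0.03. The 11 calls are 30.6% of them, beside 33.8% of all genes and 45.7% of genes above background on all 6 arrays. Above background on at least 1 array were 34 of the 36. The split moved with the scaling: it was 3 higher and 11 lower after quantile normalization, 2 and 11 after cyclic loess, 6 and 6 at a common median, and 1 and 12 after either of the first 2 steps over the tested genes alone. Called lower in every alternative that tested them were Grk5, Tiam1, Grk3 and Rgs2. The calls of Gnai3, Rgs1, Rgs18 and Nup85 (higher) and of Gnai1, Rgs16 and Rac2 (lower) were each lost in at least 1. Gnai3 and Rac2 lost theirs in 11 of 24 alternatives and Rgs18 in 10 of 24. Gnai1, under background on all arrays, lost its call in 9 of 21. Grk5, a kinase that turns off activated receptors, was 8.19, 8.45 and 8.36 in the Ly6C+ F4/80low cells and 7.15, 7.12 and 7.08 in the Ly6C- F4/80high cells (-1.22, adjusted p = 5.7e-06). Tiam1, which activates Rac, was 9.56, 9.52 and 9.58 against 8.28, 8.47 and 8.28 (-1.21, adjusted p = 3.89e-06). The subsets did not overlap for either gene. Grk3 differed by -0.44 and Rgs2, a G-protein brake, by -0.39.

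Rgs1, a brake on chemokine signals in leukocytes, was called higher, with levels of 9.74, 10.19 and 10.10 in the Ly6C+ F4/80low cells and 10.38, 10.51 and 10.62 in the Ly6C- F4/80high cells (0.49, adjusted p = 0.0105), a call lost without mouse 3 (adjusted p = 0.0659). Nup85, a nuclear pore protein that also binds Ccr2, was called higher by 0.34 and lost its call without mouse 1 (adjusted p = 0.0699) and after quantile normalization (0.146) or cyclic loess (0.0813) of the tested genes. Without mouse 1 or 3, 5 or 6 of the 36 genes were called, and without the Ly6C- F4/80high sample of either, 7 were.

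Of 16 listed receptors for other chemoattractants, which also steer leukocytes, 12 were measured by their own probe sets. Of these 12, 3 were called higher, 8 lower and 1 was not called, with a median of -0.29. The 11 calls are 91.7% of them, beside 33.8% of all genes and 45.7% of genes above background on all 6 arrays. The split was 3 higher and 5 lower at a common median, and 2 and 6 after quantile normalization or cyclic loess. S1pr1, the sphingosine phosphate receptor that draws lymphocytes toward blood and lymph, was 6.95, 7.20 and 7.24 in the Ly6C+ F4/80low cells and 8.72, 8.89 and 8.71 in the Ly6C- F4/80high cells, or 3.12-fold higher (adjusted p = 2.01e-06). Ltb4r1, the high-affinity leukotriene B4 receptor, was 7.02, 7.29 and 7.30 against 5.80, 5.75 and 5.99, or 2.56-fold lower (adjusted p = 7.92e-06). S1pr3 (-0.90), Gpr183 (-0.83), the oxysterol receptor, C5ar2 (-0.72) and Ptafr (-0.42), the receptor for platelet-activating factor, were also called lower. The calls of these 6 genes held in every alternative that tested them. C3ar1, the complement C3a receptor, was called higher by 0.35, a call lost without mouse 3 (adjusted p = 0.0614). Ptgdr2, the prostaglandin D2 receptor of eosinophils and helper T cells, was called lower by -0.29. Its call was lost in 13 of 23 alternatives, among them the mouse as a block (adjusted p = 0.057), quantile normalization (0.13) and a common median (0.0955). S1pr2 was called higher by 0.27 and lost its call in 12 of 24 alternatives. C5ar1 (-0.25) and S1pr4 (-0.29) were called lower and lost their calls in 10 and 11 of 24. Without mouse 3, 6 of the 12 were called, and without its Ly6C+ F4/80low sample, 7 were.

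**Figure D4:**
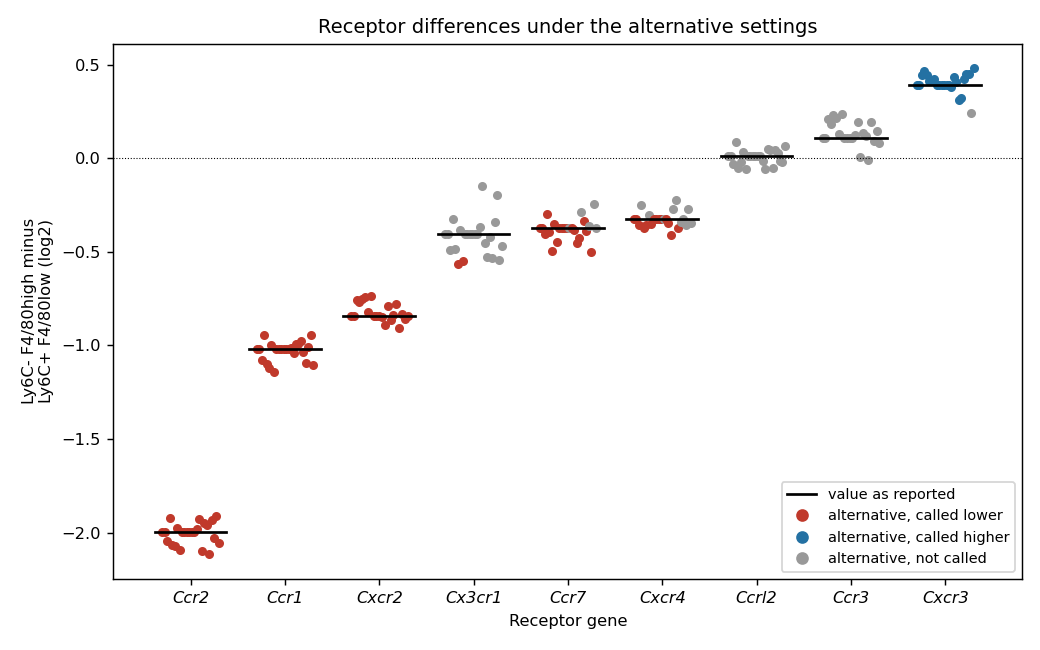
Difference of each of the 9 receptors (y axis, log2, Ly6C- F4/80high minus Ly6C+ F4/80low) as reported (black line) and under each alternative setting (points, coloured by call). Ccr2 stays between -2.12 and -1.91 and Ccr1 between -1.14 and -0.95, Cxcr4 turns grey in 10 of 24 alternatives, and Cx3cr1, spread from -0.56 to -0.15, is called in 2.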

How the data were processed

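Total RNA of 6 sorted samples was profiled on expression arrays. Per the labels' protocols, RNA was extracted with Trizol and 150 ng of it was labelled with Ambion WT Expression and GeneChip WT Terminal kits. The deposited values are log2 levels made by the authors with RMA, per the submitters' processing notes. No label states which program or settings were used, and the log2 scale was read from the range of the values. RMA compresses low signals. Arrays give no read depth, and their number limits the precision of every value.

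Of 35556 probe sets 21789 had 1 gene symbol in the annotation used, 1621 several and 12146 none. Where several probe sets named 1 of the 19938 symbols, that with the highest mean over the 6 arrays was taken. Genes with only shared probe sets are not analysed here. The test was limma's moderated test (limma 3.58.1, R 4.3.3; lmFit, eBayes; two-sided, all 6 arrays, no filter, Benjamini-Hochberg over all genes). Tested on simulated data in which 200 of 19938 genes differed, it recovered 56% at a log2 change of 0.5, 94% at 1 and 100% at 2, with 8 false calls among 180. The simulated noise was normal and independent, and far fewer genes differed than the 33.8% called in the data. These rates therefore need not hold for the data. The background level was set after the values were seen; a fold against a subset wholly under it is a bound, computed with that subset at the background.

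Per the labels, each mouse gave both subsets, so its number pairs the arrays. Deviations of paired arrays from their subset means correlated at 0.03, -0.08 and 0.09 in mice 1, 2 and 3, and as the sources name no paired test, the mouse block was an alternative. The receptors, lists, motifs and named genes were chosen with earlier results of these data known. All 9 receptors were named whatever their result, with called genes of the other lists and the 3 most similar genes outside the lists for each receptor above background. Markers of 11 cell types were counted, also mast cells (7 of 8 under background on all arrays), B cells (Cd22 and Cd79b higher, 3 of 7 under background) and muscle (2 of 8 lower). Names and promoters came from RefSeq tables of GRCm38.p6.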

Additional observations from a re-analysis of the deposited data

How the results depend on the processing

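Each value was recomputed under 24 alternatives: the mouse as a replicate block or random effect, 6 other scalings (3 of them over the tested genes alone, chosen after seeing the data), 3 filters on level, other uses of probe sets, array weights, another prior, and the removal of single arrays or mice. No called value changed sign. The replicate block gave 6164 calls against 6748, changed the call of no receptor among the 9, gave Ccr8, Ccr1l1, Pram1 and Gper1 calls and took that of Ptgdr2, and changed no other call of the genes of the receptor, ligand and signalling lists and the similar genes. Leaving out arrays gave 3998 to 6887 calls over all genes, with 3998 without mouse 3. It gave 3 to 6 for the 9 receptors, 2 to 7 for the other chemokine receptors, 8 to 10 for ligands, 5 to 11 for signalling genes and 6 to 9 for other chemoattractant receptors. The other chemokine receptors gave 3 calls instead of 5 after quantile normalization or cyclic loess of all probe sets or of the tested genes, at a common median, and with all probe sets tested separately. They gave 2 without the lowest 25% of genes (9 tested), 0 without the lowest 50% (1 tested) and 1 with only genes above background (3 tested), as fewer genes were tested. The other chemoattractant receptors gave 7 instead of 11 with all probe sets tested separately. For the rest the cause was not tested. Receptors under background, Ccr3 and Cxcr2, have no usable fold here.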
